A study of Mus musculus with 9 samples.

Results

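The chromosome ends described here are the first 2 Mb of assembled sequence beside the centromere of each of the 19 mouse autosomes. They were defined by position only, as the StyI restriction fragments whose midpoint lies between 3 Mb and 5 Mb on chromosomes 1 to 19 in the mm9 build. The 19 ends hold 46066 of the 3053721 fragments in the deposited tables, or 1.51%, with between 1986 fragments (chromosome 9) and 2926 (chromosome 19) in each.

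Mouse autosomes carry the centromere at one tip. Minor satellite DNA forms the centromere and long arrays of major satellite form the surrounding pericentromeric heterochromatin, which gathers with that of other chromosomes into chromocentres. The genome assembly leaves these arrays as a gap, so the first assembled bases of a chromosome are the ones nearest to the pericentromere. Mammalian sequence next to centromeres is known to be rich in segmental duplications, which short sequence tags often cannot be placed on uniquely.

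The cells were E14Tg2a, a mouse embryonic stem cell line from strain 129P2, cultured on gelatin with LIF and carrying no further treatment or genotype in the labels. High-salt recovered sequence (HRS) mapping extracts nuclei with high salt, digests the DNA with StyI and separates DNA that stays with the insoluble nuclear residue (HRS) from DNA that is released (Loop). There were 3 HRS and 3 Loop libraries with matching replicate numbers, and 3 libraries of input genomic DNA titled D0, D12 and D21, which the labels do not explain. No label says that replicates came from separate cultures, so the p-values measure only the spread between these libraries, which may be technical.

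Total counts were between 39.1 M (HRS replicate 3) and 62.9 M (Loop replicates 1 and 2). In both libraries of replicate 3, chromosomes 8 and 11 outside the first 2 Mb held more counts than in input: relative to the input mean, chromosome 11 stood at 1.32 in the HRS library and 1.21 in the Loop library, and chromosome 8 at 1.18 and 1.21. In the other 4 nuclear libraries these values lay between 0.986 and 1.06. Results for those ends are therefore also given against the rest of their own chromosome. Small fragments were counted more in Loop across the whole series: fragments up to 200 bp gave 51.7% ± 4.51 (SD, n = 3) of all Loop counts against 30.1% ± 1.68 in HRS and 26.3% ± 0.716 in input, and in the ends 50.7% ± 4.42, 29.4% ± 1.89 and 25.7% ± 0.765. Ratios are for this reason given with and without a correction for fragment length.

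Fragment lengths in the ends were close to those elsewhere, but many more fragments never received a count. The median fragment was 530 bp in the ends and 537 bp in the rest of chromosomes 1 to 19, and 23.9% and 23.5% were 200 bp or shorter. By chromosome, the median of the end was shorter than that of the rest in 9 cases and longer in 10, from 437 bp at chromosome 11 to 644.5 bp at chromosome 9. Of the fragments in the ends, 12292, or 26.7%, had no count in any of the 9 libraries, compared with 15.1% in the rest of these chromosomes. With chromosome 14 included, the share was 22.9% in the 2 Mb that follow and 13.7% in the last 2 Mb before the other telomere. Without chromosome 14 it was 22.5% in the ends. The 200 kb steps of the 2 Mb that follow then lay between 14.6% and 24.0%. These are descriptions of 1 genome, with no replicate error and no test.

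The larger uncounted share was present in each of 3 length classes. Among fragments up to 200 bp, 35.7% were never counted in the ends and 23.1% in the rest. For lengths above 200 bp and up to 1000 bp the shares were 24.4% and 13.1%, and above 1000 bp they were 23.0% and 11.9%. Without chromosome 14 the ends still stood above the rest in each class, at 31.9%, 20.0% and 18.9%. In 15 of 19 chromosomes the end had a larger uncounted share than the rest of the same chromosome, the exceptions being chromosomes 2, 11, 12 and 17. The lowest was chromosome 11, where 6.73% of the end and 9.69% of the rest were uncounted.

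The uncounted share was highest at the very start of the sequence. In the first 200 kb, 53.7% of fragments had no count (51.2% without chromosome 14), in the next 200 kb 28.9%, and from there to 5 Mb between 19.2% and 27.4%. At the edge of the region, the last 200 kb inside it stood at 22.5% and the first 200 kb outside it at 19.2%. The first step was the highest of the 10 in 13 of the 19 ends, and above 40% in 14. Median fragment length in that step was 506 bp, similar to the 500 to 555 bp of the later steps.

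**Figure D1:**
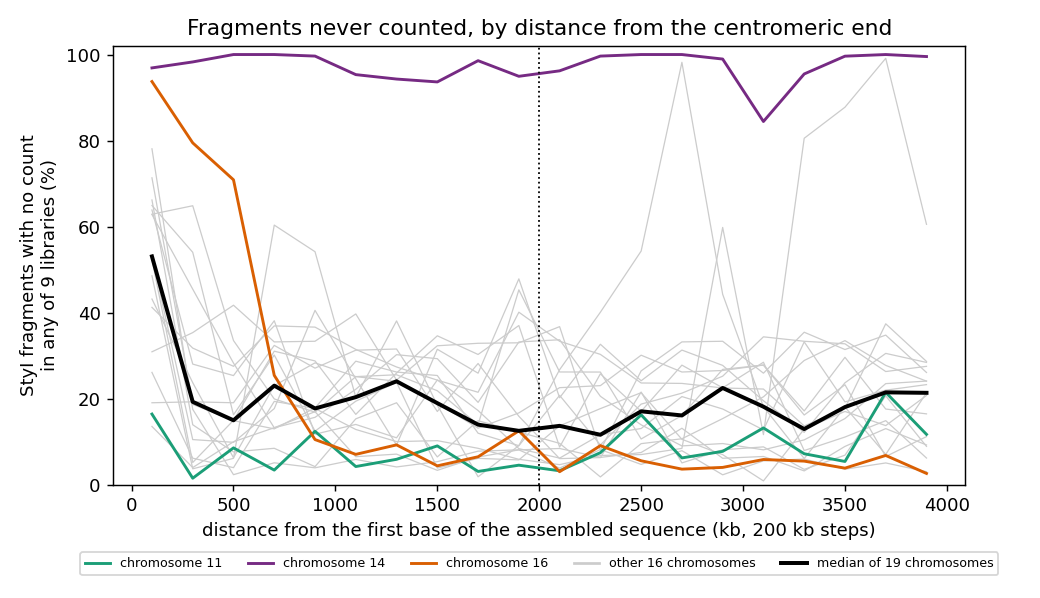
Share of StyI fragments without a count in any of 9 libraries (percent, vertical axis) in steps of 200 kb from the first base of assembled sequence (horizontal axis, kb), with 1 line for each chromosome, the median of the 19 in black, and a dotted line at 2 Mb. The median falls from 53.1% in the first step to 19.3% in the second, while chromosome 14 stays at 93.6% or more throughout the first 2 Mb.

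Chromosome 14 had the highest uncounted share over its 2 Mb, and chromosome 16 the second highest in its first 200 kb. At the end of chromosome 14, 2505 of 2579 fragments, or 97.1%, had no count. A single run of 786 adjoining fragments, chr14:3307710-3942593 (635 kb), was empty in all 9 libraries. A count of 0 in the pooled libraries allows up to 0.00598 CPM (counts scaled by the library total), where the floor is 3 counts and covers counting error only. Among the windows of 2 Mb that tile the genome and hold at least 100 fragments, 5 had a larger uncounted share.

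The 74 counted fragments of chromosome 14 received few counts in total. HRS replicates 1, 2 and 3 gave 22.3, 23.0 and 24.8 CPM, the Loop replicates 27.4, 29.2 and 30.1 CPM, and the D0, D12 and D21 inputs 25.3, 24.6 and 30.9 CPM. A 693 bp fragment at chr14:4213406-4214099 alone held 18.7% of the pooled counts, so ratios at this end rest on few positions. In RefSeq's GRCm38.p6 gene table, 11 of the first 12 protein-coding genes from this end have Gm names, the provisional symbols of predicted mouse genes. Gene names in this text come from that table and serve only to show which genes lie first on a chromosome, since their mm9 positions were not used here.

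Chromosome 16 went from nearly empty to well covered within 1 Mb. Its first 3 steps had 93.7%, 79.5% and 70.9% uncounted fragments, the fourth 25.4% and the sixth 7.03%. Input was 4.87 ± 0.119 CPM (SD, n = 3) in the first step and 122 ± 5.83 CPM in the fifth. Chromosome 19 showed the same order over a shorter distance, with 78.1% uncounted in the first 200 kb and 17.5% in the second. The first protein-coding genes listed on chromosome 16 are the olfactory receptor Olfr161 and Mefv, which encodes the pyrin inflammasome protein.

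Together the ends held a slightly larger share of HRS counts than of Loop or input counts. They took 1.52%, 1.55% and 1.65% of the counts of HRS replicates 1, 2 and 3, against 1.43%, 1.43% and 1.45% in Loop and 1.46%, 1.40% and 1.42% in the D0, D12 and D21 inputs. All 3 HRS values lay above all 6 others, and replicate 3 was the highest. The means were 1.57% ± 0.0673 (SD, n = 3), 1.43% ± 0.0104 and 1.43% ± 0.0278. No p is given for this sum. Of the difference between the HRS and Loop means, 1403 CPM in all, chromosomes 7, 11 and 19 made up 1194 CPM. The other 16 ends gave a net 209 CPM. Their differences ran from 163.6 CPM at chromosome 12 to -112.5 CPM at chromosome 17. For chromosome 11, both libraries of replicate 3 also stood above input outside the end. In the last 2 Mb of these chromosomes HRS lay above input without overlap too. The shares there were 1.85%, 1.85% and 2.0% in HRS and 1.82%, 1.79% and 1.77% in the D0, D12 and D21 inputs. Loop, at 1.83%, 1.84% and 1.87%, overlapped HRS there. In the 2 Mb that follow the ends, HRS overlapped both Loop and input.

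Counts per fragment differed widely between ends in the input. Input counts per fragment per library lay below those of the rest of the same chromosome in 13 of 19 ends, with ratios from 0.0341 at chromosome 14 to 1.94 at chromosome 11. When only fragments counted in at least 1 library were used, 11 ends still lay below. A level in CPM at an end therefore depends both on how many of its fragments were counted and on how many counts each received, and the comparisons that follow are made between fractions within an end.

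**Figure D2:**
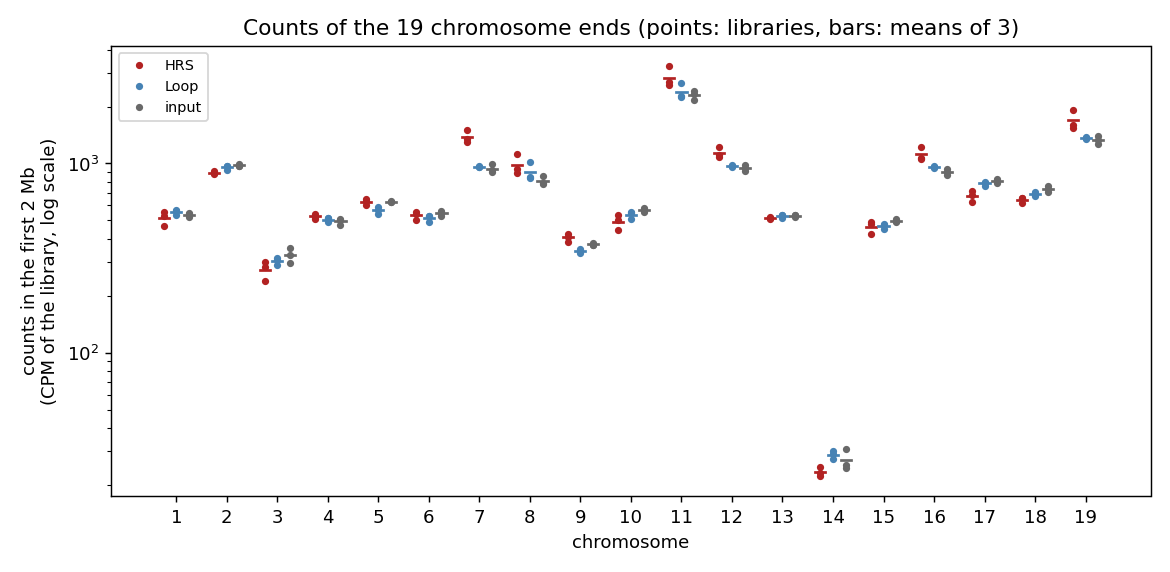
Counts in CPM (vertical log axis) in each of the 3 HRS, 3 Loop and 3 input libraries for the first 2 Mb of the 19 chromosomes (horizontal axis), with points for libraries and short horizontal bars for group means. Chromosome 11 is highest and chromosome 14, between 22.3 and 30.9 CPM, is lowest in every library, and the HRS points of chromosome 7 stand clear of both other groups.

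HRS was compared with Loop to ask which ends were retained with the insoluble residue. In edgeR's quasi-likelihood test with Benjamini-Hochberg adjustment over 1301 windows of 2 Mb, 34.7% of windows were called at an adjusted p of 0.05, 14.8% higher in HRS and 20% lower. Among the ends 6 of 19 were called, 4 higher in HRS (chromosomes 5, 7, 9 and 12) and 2 lower (chromosomes 17 and 18). These shares, 21.1% and 10.5%, are read against that background and not as a property of the ends as a class. The median log2 ratio was 0.06 over the ends and -0.01 over all windows.

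Chromosome 7 had the largest ratio of HRS to Loop among the ends. HRS replicates 1, 2 and 3 held 1343, 1299 and 1512 CPM, Loop replicates 958, 975 and 954 CPM, and the D0, D12 and D21 inputs 995, 920 and 897 CPM. Every HRS library exceeded every Loop and input library, while Loop and input overlapped. The fitted log2 ratio was 0.54 (SE 0.08, 1.45-fold, edgeR adjusted p = 0.00229), and its rank was 22 among 1301 windows. With length correction it was 0.62. The first protein-coding genes listed at this end include Nlrp12, an inflammasome family receptor, Myadm and the calcium channel gamma subunits Cacng7, Cacng8 and Cacng6.

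Within chromosome 7 the excess was not even. In the step from 200 to 400 kb, HRS reached 179 ± 13.0 CPM and Loop 80.6 ± 4.12 CPM (SD, n = 3), a log2 ratio of 1.15. From 600 to 800 kb the ratio was 1.23, although 60.3% of fragments there had no count. From 800 to 1000 kb HRS and Loop were 31.7 ± 2.52 and 33.1 ± 2.19 CPM, with overlapping spreads. Fitted by 1 Mb windows, the first Mb stood at log2 0.83 (SE 0.07, edgeR adjusted p = 0.000136) and the second at 0.39 (SE 0.10, adjusted p = 0.0167).

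Chromosomes 9, 12 and 5 had smaller ratios. At chromosome 9, HRS gave 423, 410 and 386 CPM against 354, 345 and 335 CPM in Loop and 371, 369 and 380 CPM in input, with no overlap between HRS and either of the others. Its log2 ratio to Loop was 0.25 (SE 0.04, edgeR adjusted p = 0.00311), and genes listed first include Alkbh8, a tRNA-modifying enzyme, and Gria4, an AMPA glutamate receptor subunit. At chromosome 12, which begins with Rab10, Kif3c, Asxl2, Dtnb and the de novo DNA methyltransferase gene Dnmt3a, HRS gave 1077, 1106 and 1224 CPM. Loop gave 971, 984 and 963 CPM there and input 982, 950 and 911 CPM. The log2 ratio of 0.24 (SE 0.07, edgeR adjusted p = 0.039) missed the threshold when any 1 Loop library was left out, with adjusted p between 0.0897 and 0.11.

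The end of chromosome 5, which starts with the cell-cycle kinase gene Cdk6, changed along its length. Over 2 Mb, HRS gave 646, 630 and 605 CPM, Loop 588, 570 and 541 CPM, and input 631, 627 and 627 CPM. HRS lay above Loop without overlap (log2 ratio 0.16, SE 0.03, edgeR adjusted p = 0.00548) but among the input values. The first Mb had a ratio of 0.41 (SE 0.04, adjusted p = 0.000256) and the second -0.10 (SE 0.04, adjusted p = 0.0983). Scaling to library totals in place of TMM gave an adjusted p of 0.0598 for the 2 Mb.

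Chromosome 17 was lower in HRS. Its replicates gave 679, 712 and 623 CPM in HRS, 796, 793 and 763 CPM in Loop and 790, 806 and 826 CPM in input, so that all HRS libraries lay below all others. The log2 ratio to Loop was -0.22 (SE 0.03, edgeR adjusted p = 0.00136). Fitted by 1 Mb windows, the second Mb stood at -0.38 (SE 0.05, edgeR adjusted p = 0.000556) and the first at -0.03 (SE 0.03, adjusted p = 0.429). In steps of 200 kb, mean HRS was already below mean Loop from 400 kb on. The log2 ratios of the steps from 400 to 1000 kb were -0.21, -0.36 and -0.46. The first 200 kb went the other way, with HRS at 70.7 ± 3.15 CPM and Loop at 39.97 ± 2.79 CPM (SD, n = 3). Arid1b, a subunit of the BAF chromatin remodelling complex, is among the genes listed first on this chromosome.

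Chromosome 18 combined opposite directions within 2 Mb. HRS gave 654, 655 and 620 CPM, Loop 709, 691 and 672 CPM and input 733, 707 and 757 CPM, a log2 ratio to Loop of -0.09 (SE 0.02, edgeR adjusted p = 0.0203). In the first 200 kb HRS was 111 ± 14.7 CPM and Loop 46.0 ± 5.66 CPM (SD, n = 3). The first Mb was higher in HRS (log2 0.30, SE 0.04, adjusted p = 0.00041) and the second lower (log2 -0.34, SE 0.03, adjusted p = 0.000188). A single fragment carried much of the start: chr18:3003014-3005927, 2913 bp long, gave 87.8, 76.7 and 50.9 CPM in HRS, 15.1, 17.9 and 5.57 CPM in Loop and 29.7, 29.6 and 36.1 CPM in input. In a fit that left out the leading fragment of every 2 Mb window, here this one, the log2 ratio of the 2 Mb became -0.24. The call for the 2 Mb was lost in 9 other settings, among them leaving out HRS replicate 1, HRS replicate 2 or any 1 Loop library, with adjusted p between 0.0565 and 0.142.

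The ends of chromosomes 19, 11, 3 and 14, also among the 3 highest or 3 lowest ratios, did not pass the edgeR test used above. Chromosome 19, which starts with Ighmbp2, Mrpl21 and the carnitine palmitoyltransferase gene Cpt1a, gave 1540, 1600 and 1923 CPM in HRS, 1349, 1383 and 1365 CPM in Loop and 1389, 1330 and 1275 CPM in input. HRS and Loop did not overlap, but HRS replicate 3 stood well above the other 2 (log2 ratio 0.32, SE 0.12, edgeR adjusted p = 0.0656). Chromosome 11 gave 2586, 2685 and 3260 CPM in HRS, 2268, 2251 and 2663 CPM in Loop and 2404, 2166 and 2316 CPM in input, with overlap between HRS and Loop (log2 0.26, SE 0.18, adjusted p = 0.306). Chromosome 3 gave 282, 301 and 240 CPM in HRS and 309, 315 and 291 CPM in Loop (log2 -0.14, SE 0.07, adjusted p = 0.139), and chromosome 14, described above, had -0.30 (SE 0.10, adjusted p = 0.0558). DESeq2 called chromosomes 19 (log2 0.34, adjusted p = 0.0248) and 14 (log2 -0.28, adjusted p = 0.0138). With the replicate number as a block, which pairs HRS with Loop, edgeR called chromosome 19 (log2 0.31, adjusted p = 0.000961), chromosome 3 (log2 -0.15, adjusted p = 0.0296) and chromosome 14 (log2 -0.30, adjusted p = 0.0236). All 3 pairs had 1 sign at each of these 3 ends. They also had 1 sign at chromosome 11, which was not called with the block (log2 0.25, edgeR adjusted p = 0.0756).

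Replicates 3 set part of that spread. Leaving out HRS replicate 3 gave chromosome 19 a log2 ratio of 0.18 (edgeR adjusted p = 0.00799), and leaving out both libraries of replicate 3 gave chromosome 11 a ratio of 0.21 (adjusted p = 0.00207). With both left out 16 ends were called, 8 in each direction, and without HRS replicate 3 alone 10, 6 higher and 4 lower. Shares over all windows are not given for these fits, so the counts are not read as a property of the ends. At chromosomes 7, 12, 16 and 19, HRS replicate 3 was the highest HRS library and Loop replicate 3 was not the highest Loop library. At chromosomes 8 and 11, both were highest in their groups.

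Length correction, scaling on the rest of the chromosome and the replicate block gave more calls, while library totals gave 7 and median-of-ratios factors 5. For library totals and median-of-ratios factors no share over all windows is given. With length correction 10 ends were called, 6 higher in HRS (5, 7, 9, 12, 16 and 19) and 4 lower (3, 10, 17 and 18), beside 39.7% of all windows (20.3% higher, 19.4% lower). That correction moved the log2 ratio away from 0 at chromosomes 12 (0.32), 19 (0.43), 11 (0.31), 3 (-0.22) and 18 (-0.12). It moved the ratio toward 0 at chromosomes 9 (0.15), 5 (0.09), 17 (-0.19) and 14 (-0.13, edgeR adjusted p = 0.464). Against the rest of the same chromosome 11 were called, 8 higher and 3 lower, beside 40.9% of windows (18% higher, 22.9% lower), and there chromosome 11 stood at log2 0.18 (SE 0.06, edgeR adjusted p = 0.0396) and chromosome 8 at 0.16 (SE 0.03, adjusted p = 0.00328). With the replicate block 14 ends were called, 7 higher and 7 lower, beside 51.9% of windows (23.1% higher, 28.7% lower). With the block and length correction together there were 11 calls, 7 higher and 4 lower, beside 49.1% (24.8% higher, 24.4% lower). Chromosomes 5, 7, 9, 12 and 17 were called in the same direction in all 5 of these fits.

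**Figure D3:**
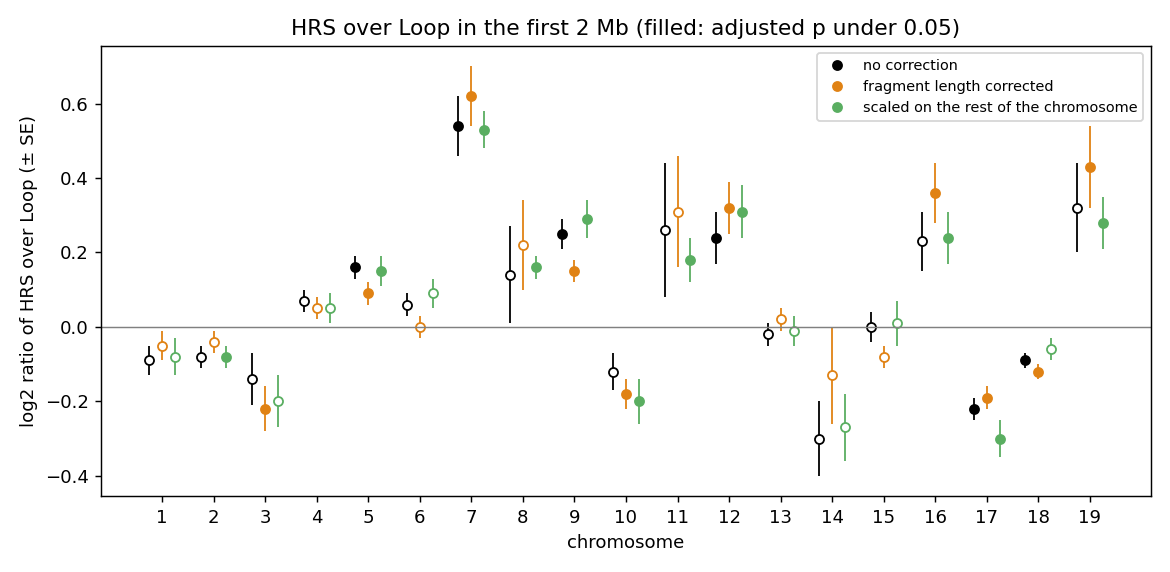
Log2 ratio of HRS over Loop with its standard error (vertical axis) for each of the 19 chromosome ends (horizontal axis), fitted without correction, with fragment length correction, and scaled on the rest of the chromosome, with filled points where the adjusted p is under 0.05. Without correction chromosome 7 lies at 0.54, chromosome 14 at -0.30 and all others between -0.22 and 0.32.

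Ends with more StyI sites tended to have higher ratios. Across the 19 ends the number of fragments and the log2 ratio correlated at Pearson's r = 0.44 (Spearman's rho 0.40), or 0.55 (0.48) over 18 ends without chromosome 14. With length correction the values were 0.65 (0.55) and 0.71 (0.61). Over the 1198 other windows of chromosomes 1 to 19, r was -0.11 without correction and 0.21 with it. All points share the same 6 libraries, and fragment number was not compared with base composition or gene content, so these are descriptions with no p.

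**Figure D4:**
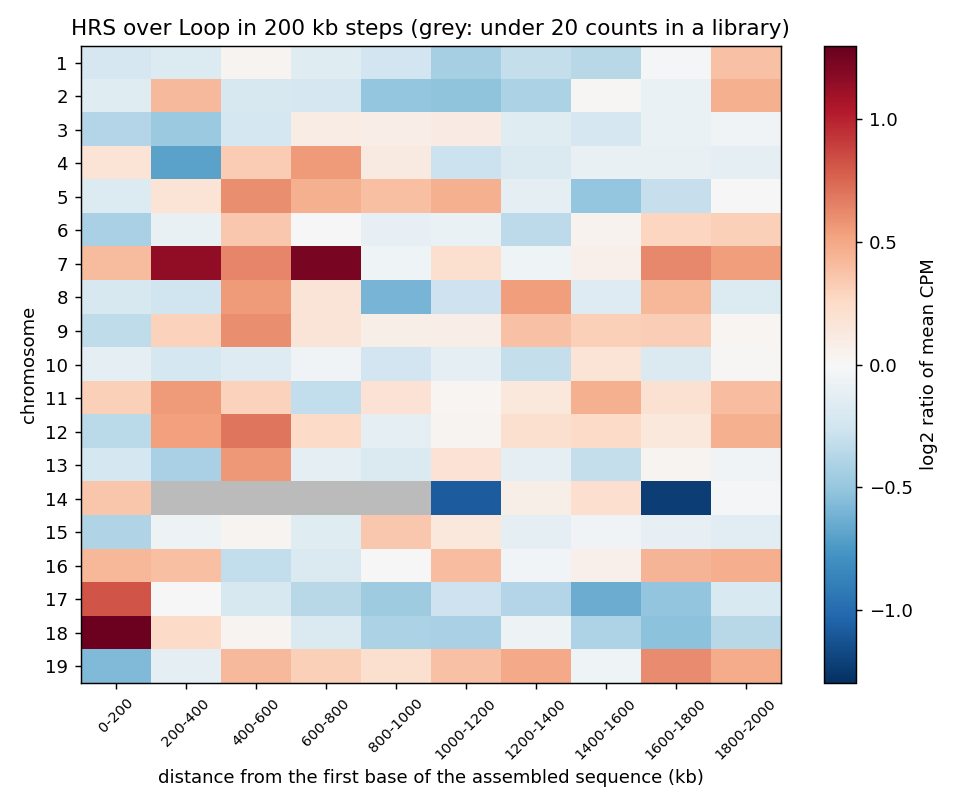
Log2 ratio of HRS over Loop from mean CPM in 10 steps of 200 kb from the start of the sequence (horizontal axis, kb) for each chromosome (vertical axis), red where HRS is higher and blue where Loop is higher, with steps under 20 counts in a library in grey. The first step of chromosome 18 (1.27) is followed by 0.25 and 0.04 and by negative values from 600 kb on, chromosome 19 goes from -0.57 to positive values, and chromosome 14 has no value between 200 and 1000 kb.

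Position within the end gave no common order of the ratios. The median log2 ratio in the first 200 kb was -0.18 with 7 of 19 ends above 0, and in the following steps it lay between -0.12 and 0.32, the highest being the step from 400 to 600 kb with 13 of 18 ends above 0. Chromosome 19 began at -0.57 and stood at 0.42 in that step, with 160 ± 14.9 CPM in HRS and 120 ± 5.15 CPM in Loop (SD, n = 3). Chromosome 4, whose first listed genes are the vomeronasal receptors Vmn1r2 and Vmn1r3, had 0.26 in its first Mb (SE 0.06, edgeR adjusted p = 0.00848) and -0.14 in its second (SE 0.06, adjusted p = 0.108). In chromosome 16 the first Mb was at -0.01 and the second at 0.32 (SE 0.11, adjusted p = 0.0391).

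The chromosome 11 end held a block of very high counts in all 3 kinds of library. In 80 kb, chr11:3020001-3100000, 114 fragments (13 never counted) gave 1001, 1051 and 1143 CPM in HRS, 912, 852 and 954 CPM in Loop and 956, 885 and 1059 CPM in the D0, D12 and D21 inputs. HRS lay above Loop without overlap, and input overlapped both. Per bin of 10 kb, input was 38.0 times the median bin of the genome. As a share of all counts of this end, the block held 38.7%, 39.1% and 35.1% in HRS and 40.2%, 37.9% and 35.8% in Loop. By this measure HRS and Loop overlapped. The D0, D12 and D21 inputs stood at 39.7%, 40.9% and 45.7%. By input, its 8 bins ranked 2 to 7, 9 and 12 among 256148 bins of the genome, at 16.0 to 57.6 times the median bin of 3.18 CPM. The first protein-coding gene listed on chromosome 11 is Sfi1, whose product binds centrins at the centrosome.

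Among the 10 fragments of the ends with the highest input, 9 lay in chromosome 11. For instance, chr11:3041904-3042312 (408 bp) gave 25.1, 25.1 and 32.3 CPM in HRS and 18.7, 16.1 and 17.9 CPM in Loop, while the shorter chr11:3061399-3061538 (139 bp) gave 24.0, 27.6 and 31.1 CPM in HRS and 35.1, 36.1 and 56.8 CPM in Loop. The direction between fractions thus differed between these fragments. The longest of the 9, chr11:3042381-3043117 (736 bp), gave 12.3, 11.7 and 11.5 CPM in HRS and 13.8, 12.3 and 9.65 CPM in Loop, with overlap. In the block fragments up to 200 bp gave 41.0% ± 4.15 of Loop counts and 23.0% ± 1.10 of HRS counts (SD, n = 3).

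Inside the block 2 of 8 bins were called, both higher in HRS, beside 38.2% of all tested bins (17.8% higher, 20.4% lower). At chr11:3070001-3080000 the log2 ratio was 0.66 (edgeR adjusted p = 0.0249, and 0.34, adjusted p = 0.089, with length correction). At chr11:3090001-3100000 HRS gave 157, 152 and 182 CPM and Loop 87.9, 74.1 and 86.3 CPM, a ratio of 0.97 (edgeR adjusted p = 0.00952, and 0.76, adjusted p = 0.00328, with length correction). From that bin on, all bins to 3210000 were called higher in HRS, a run of 120 kb with a mean log2 ratio of 1.37. The block ended there, with input at 120 ± 10.7 CPM in the bin at 3090001 and 6.58 ± 2.41 CPM in the next (SD, n = 3).

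**Figure D5:**
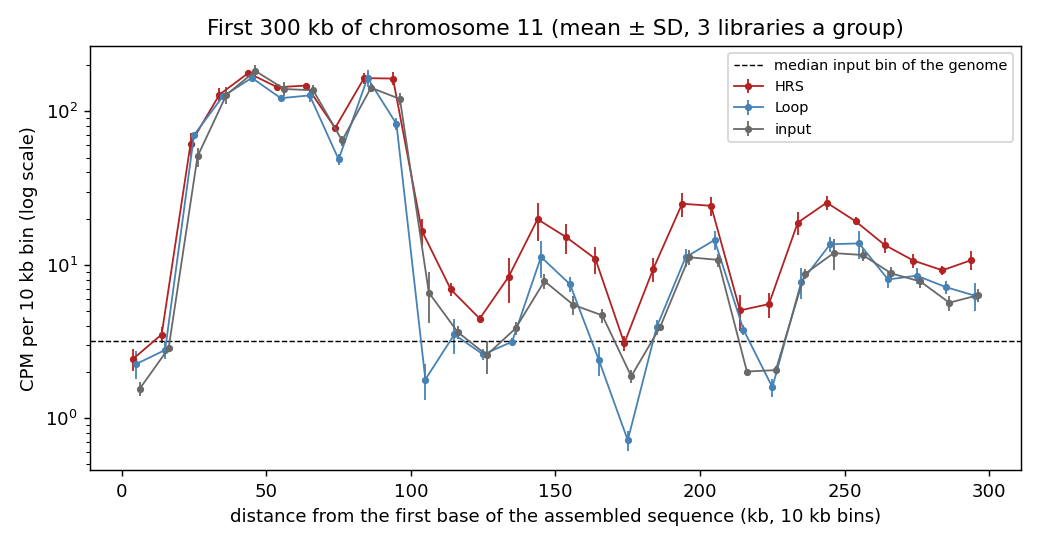
Mean CPM with SD (vertical log axis) in HRS, Loop and input (n = 3 each) for 10 kb bins in the first 300 kb of the chromosome 11 end, by distance from its first base (horizontal axis, kb), with the median input bin of the genome as a dashed line. The 8 bins from 20 to 100 kb stand at 50.8 to 183 CPM in input, and from 90 to 210 kb the HRS mean lies above the Loop mean in every bin.

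With 10 kb bins, 38.2% of 245823 tested bins were called between HRS and Loop, 17.8% higher in HRS and 20.4% lower. In the ends 3453 bins were tested, of which 742 (21.5%) were higher and 531 (15.4%) lower in HRS. After length correction the counts were 679 (19.7%) and 207 (5.99%), beside 15% and 8.44% of all bins (23.4% in either direction). The share of calls that were higher in HRS was 58.3% without and 76.6% with the correction, and over all bins 46.7% and 63.9%. Calls in both directions were fewer with it. Chromosome 14 gave 18 tested bins of 197 with a fragment, so it is nearly absent from these counts.

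Calls were unevenly spread over the ends. Of 200, 199, 192 and 178 tested bins, chromosomes 11, 12, 19 and 7 had 81, 78, 76 and 74 higher in HRS. At these ends 13, 14, 9 and 9 were lower. Chromosomes 17 and 18, with 199 and 195 tested bins, had 21 higher at each and 55 and 57 lower. Chromosomes 3 and 10, with 195 tested bins at each, had 12 and 13 higher and 32 and 35 lower. Over all tested bins 17.8% were higher and 20.4% lower. Adjoining calls of 1 direction formed 351 runs for HRS and 395 for Loop, and 6 runs reached 10 bins, all higher in HRS. The longest, chr7:3260001-3410000, covered 150 kb with a mean log2 ratio of 1.03. Runs over all bins are not given, so these run counts are not read as a property of the ends.

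The 10 bins named for HRS by the size of their ratio were at 6 ends, and all 10 were also called above input in HRS and below input in Loop. They were chosen for a large HRS to Loop ratio, and with length correction all 10 were called above input in HRS but only 2 below input in Loop. The highest was chr4:3750001-3760000, with 6.91, 5.47 and 10.99 CPM in HRS, 0.732, 0.795 and 0.358 CPM in Loop and 1.83, 1.56 and 1.43 CPM in input. HRS and Loop are separated there in all libraries, at 12.2-fold (log2 3.61, SE 0.27, edgeR adjusted p = 1.58e-08), or 8.07-fold with length correction. It lies in a run of 40 kb. The second, chr11:3100001-3110000, borders the block of high counts, with 15.5, 13.99 and 20.4 CPM in HRS and 2.16, 1.94 and 1.26 CPM in Loop, 9.22-fold (edgeR adjusted p = 2.48e-09). Next came chr7:3650001-3660000, 6.35-fold, with HRS at 23.5, 20.4 and 32.6 CPM and Loop at 4.21, 3.86 and 3.88 CPM (edgeR adjusted p = 1.99e-08).

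The other 7 HRS bins lay at chromosome 11 (chr11:4990001-5000000, 6.15-fold), chromosome 18 (chr18:3000001-3010000, 5.11-fold), chromosome 7 (4740001, 4.90-fold, 3220001, 4.87-fold, and 3300001, 3.63-fold), chromosome 19 (4760001, 4.15-fold) and chromosome 13 (3560001, 3.63-fold). Each contained 5 to 12 fragments. Their leading fragments were 189 to 3752 bp long. All 10 were still called with length correction, at 2.65 to 8.07-fold.

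The 10 bins higher in Loop had smaller ratios and were led by short fragments. The highest, chr17:4580001-4590000, gave 2.10, 2.27 and 1.43 CPM in HRS, 4.87, 5.42 and 5.41 CPM in Loop and 2.22, 3.55 and 3.46 CPM in input, 2.74-fold higher in Loop (edgeR adjusted p = 1.48e-06). Its leading fragment was 35 bp long and held 36.7% of the counts of the bin. Across the 10 bins the leading fragment was 35 to 105 bp long and the ratio 2.16 to 2.74-fold. All 10, chosen for a large Loop to HRS ratio, were called above input in Loop, and 3 below input in HRS. With length correction 0 were called above input in Loop and 3 below input in HRS. After length correction the ratios were 1.13 to 1.61-fold and 7 of 10 bins were still called. The 3 that missed were chr14:4140001-4150000, chr9:3300001-3310000 and chr3:3490001-3500000, and in the first of these the 63 bp leading fragment held 83.8% of the counts.

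Against input, edgeR with TMM scaling called 9 ends in HRS and 0 in Loop. In HRS over input 39.2% of windows were called by edgeR, 22.2% higher and 17% lower, and of the ends 7 were higher (chromosomes 4, 7, 8, 9, 12, 16 and 19) and 2 lower (17 and 18). Without the D12 input 5 ends were called, and without the D21 input 4, with no share over all windows given for these fits. Scaled on the rest of the chromosome, 5 ends were higher (chromosomes 7, 8, 12, 16 and 19) and 4 lower (2, 10, 17 and 18), beside 41.7% of windows (17% higher, 24.7% lower). The log2 ratio was 0.65 at chromosome 7 (SE 0.09, adjusted p = 0.00109), 0.43 at chromosome 19 (SE 0.12, adjusted p = 0.0197) and 0.39 at chromosome 16 (SE 0.08, adjusted p = 0.0059). At chromosome 11 it was 0.39 (SE 0.18, adjusted p = 0.103), and 0.51 (adjusted p = 0.0218) once the 19 bins of the genome with over 10 times the median input, 8 of them the block, were left out, a setting chosen after seeing the data. Against the rest of its chromosome it was 0.13 (SE 0.07, edgeR adjusted p = 0.155). Chromosome 8, whose first gene is the insulin receptor gene Insr, gave 892, 939 and 1117 CPM in HRS and 863, 788 and 775 CPM in input (log2 0.37, SE 0.10, adjusted p = 0.0193), and 0.20 (SE 0.04, adjusted p = 0.00318) against the rest of its chromosome. HRS over Loop and HRS over input share the HRS libraries, so the same ends recurring in both is not independent evidence.

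For Loop over input, edgeR called 0 of 1301 windows, or 0% of them, and 0 ends. At an unadjusted p under 0.05 there were 3 ends, and DESeq2 called 3 ends. Without the D0 input edgeR called 4. No shares over all windows are given for these counts. Scaled on the rest of the chromosome, edgeR called 2 ends, 1 in each direction, beside 21.8% of windows (8.07% higher, 13.7% lower). The largest log2 ratio in the ends was 0.19 at chromosome 8 (SE 0.09, edgeR adjusted p = 0.159). At 10 kb, 773 of 3473 bins of the ends were called higher and 599 called lower in Loop, beside 21.5% and 18% of all bins (39.4% together). With length correction 16 and 6 were called, beside 0.269% and 0.0786% of all bins (0.348% together). Scaled on the rest of the chromosome, 540 bins were higher and 952 lower, beside 14.5% and 28.3% of all bins (42.8% together), and the median log2 ratio of all bins was -0.14 in place of -0.02. In HRS over input 741 of 3478 bins were higher and 231 lower, beside 15.2% and 9.16% of all bins (24.3% together). With length correction they were 742 and 234, beside 15.5% and 9.71% (25.2% together). Scaled on the rest of the chromosome they were 608 and 463, beside 12.2% and 18.2% (30.4% together), with a median of -0.15 over all bins in place of -0.03. Without the D12 input the calls in HRS over input were 638 in all and without the D21 input 569, against 972. Shares over all bins are not given for these fits.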

How the data were processed

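The study's authors deposited, per library, a table of StyI fragments (chromosome, start, end) with whole-number counts, per the file contents; CASAVA 1.8.2 and build mm9 are given per the submitters' processing notes. How tags matching several places were treated is not given in the sources used here. Fragments with midpoint between 3 Mb and 5 Mb on chromosomes 1 to 19 were taken. The members, the lists and the rule for named bins were chosen with earlier results of these data known.

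Counts were summed by midpoint into 10 kb bins and 2 Mb windows starting at 3 Mb. edgeR 4.0.16 in R 4.3.3 was run with quasi-likelihood tests, TMM, filterByExpr with a minimum count of 10, adjusted p of 0.05, and only the groups compared. Named bins were the 10 with the largest log2 ratio in each direction among called bins that had the median count or more and 1 sign in each of the 3 pairs of equal replicate number, adjoining calls being merged. Length correction is an offset of expected counts in 20 length classes. DESeq2 1.42.0, other scalings, library omission and 1 Mb windows were alternatives. Fits were tested on simulated data. Depth was 39.1 to 62.9 M counts per library.

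The block fits pair HRS with Loop by replicate number. Deviations of same-numbered libraries from group means correlated at 0.154, 0.108 and 0.228 over 10 kb bins. HRS replicate 2 and Loop replicate 1 correlated at 0.124, above the 0.108 of both replicates 2. Over 2 Mb windows the same-numbered values were 0.776, 0.371 and 0.732, and HRS replicate 2 with Loop replicate 1 gave 0.665. These values set replicate 3 apart but do not settle which of replicates 1 and 2 belong together. No gene positions or sequences were used.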

Additional observations from a re-analysis of the deposited data

How the results depend on the processing

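The number of ends called between HRS and Loop (6) became 10 with fragment length correction, 11 with rest-of-chromosome scaling, 14 with the replicate block, 11 with the block and length correction, and 16 without both libraries of replicate 3. Leaving out 1 library gave 4 to 10 ends, the highest without HRS replicate 3. Leaving out 1 library gave 4 to 10 ends in HRS over input (main 9), 5 without the D12 input and 4 without the D21 input. In Loop over input it gave 0 to 4 ends, 4 without the D0 input. DESeq2 called 3 ends and rest-of-chromosome scaling 2 in Loop over input. At 10 kb, leaving out the D12 or D21 input lowered HRS over input from 972 calls to 638 or 569 (569 to 1038 over all single libraries). Length correction lowered Loop over input from 1372 to 22. The cause was not tested. For fits with libraries left out, DESeq2, library totals and median-of-ratios factors, shares over all windows or bins are not given. Those counts are not read as a property of the ends. With the first 1 Mb in place of 2 Mb, the sign changed at chromosome 14 (HRS over Loop 0.33, adjusted p 0.398), chromosome 18 (HRS over Loop 0.30, adjusted p 0.00041, and HRS over input 0.19, adjusted p 0.0108) and chromosome 17 (HRS over input 0.01, adjusted p 0.819), and at some ends without a call in either fit, such as chromosome 16 in HRS over Loop (-0.01). Of the counts of called regions, 76 kept within 1.5 times the main value and 14 did not, and of single regions 568 kept their side of the threshold, 21 passed it, 41 missed it and 4 changed sign. Leaving out high-input bins was added after seeing the data. Chromosome 14 rests on 74 counted fragments.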
